A study of Mus musculus with 4 samples.

Results

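Transcripts of the fatty acid oxidation machinery were followed in whole mammary fat pad (MFP) tissue of aged and young mice through 35 genes of the mitochondrial and peroxisomal pathways. The genes were taken by their symbols from a list made by function, and each of the 35 was found on 1 row of the deposited table of 55487 genes. All 35 passed the filter on low counts. Fatty acid oxidation removes acetyl units from activated fatty acids in a repeating cycle of dehydrogenation, hydration, dehydrogenation and thiolysis. Long chains enter mitochondria as carnitine esters, the first dehydrogenation passes its electrons to the respiratory chain through the electron transfer flavoprotein, and peroxisomes shorten the chains that mitochondria handle poorly. In white fat the pathway competes with storage of fatty acids as triglyceride, whereas brown fat and skeletal muscle use it as a main source of energy.

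The MFP of 2 aged C57BL/6J mouse samples (14 months) was compared with that of 2 young samples (8 weeks), each age having a replicate 1 and a replicate 2, with no genetic change or treatment named in the labels. The methods of the study also name strain J, and female C57BL/6NCrl mice for the animals it injected in the fat pad. Tissue was cut up and lysed whole, without isolation of adipocytes, and the libraries were strand-specific and depleted of ribosomal RNA. The labels call the samples biological replicates and do not state separate animals, so the p-values measure only the spread between these samples.

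The libraries held between 68803304 and 98402403 counts, and 3 counts corresponded to 0.0337 to 0.0407 CPM, the count scaled to the library total. Summed CPM of 16 skeletal muscle markers was 47535 and 76645 in aged replicates 1 and 2 against 12226 and 16995 in young replicates 1 and 2, or 4.25-fold higher on average, with 16 of 16 above 0 on the log2 fold scale. That of 8 white adipocyte markers was 13181 and 9579 against 7605 and 7837, with 7 of 8 positive log2 fold changes under each of the 4 scalings tried. All 8 were detected, with Adipoq, the adipokine adiponectin, at 1141 and 777 CPM in aged and 531 and 430.0 CPM in young samples. Young replicate 1 stood apart in the sum of its leukocyte markers, at 1026 CPM against 54.6 to 158 CPM in the other samples. Ptprc made up most of it at 803 CPM, with the lymphocyte genes Cd3e at 124 CPM and Cd79a at 74.5 CPM. The macrophage markers of the list did not follow. Cd68 was at 13.9 CPM, within the 6.34 to 15.5 CPM of the other samples. Adgre1 was lowest in young replicate 1, below the 14.5 to 21.8 CPM of the others, and both aged values exceeded both young values. In bulk tissue, fewer cells of a type and less RNA per cell cannot be told apart.

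As a set, the fatty acid oxidation genes had a slightly higher summed level in aged than in young MFP with 1 way of scaling the libraries, and overlapping sums with another. Their CPM summed to 3718 and 3579 for the aged libraries and 3148 and 3208 for the young libraries with trimmed mean of M-values (TMM) scaling, a ratio of 1.15. With total counts as the only scaling the sums were 3622 and 3239 in aged and 3323 and 3441 in young samples, so that the ages overlapped. The median log2 fold change of the 35 genes, aged over young, was 0.15 with TMM scaling, with a range from -0.62 to 0.58. The median over all 22485 genes tested was -0.04. With total counts only, these medians were -0.03 and -0.22, so the set stayed above the median gene while its sign turned. The skeletal muscle list alone took 4.63% and 6.94% of the counts of the aged libraries and 1.29% and 1.82% of those of the young libraries. The part of these counts in the difference between the scalings was not tested.

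No single member passed the test. At a Benjamini-Hochberg adjusted p of 0.05 in the quasi-likelihood test of edgeR, 0 of the 35 genes and 0% of all genes tested were called, with adjusted p of the members between 0.41 and 0.976. Before adjustment, 2 members (5.71%), Crat and Ech1, had a p under 0.05 in the direction of higher levels in aged MFP, beside 7.24% of all genes. In the other direction there were 0 members, beside 3.31% of all genes. These counts are with TMM scaling. With total counts only, 1 member had a p under 0.05 in edgeR, beside 2752 of the 22485 genes in either direction. It was Etfb, lower in aged MFP at a log2 fold change of -0.50 (adjusted p of edgeR 0.405). DESeq2 called 0 members, with a smallest adjusted p of 0.116 for Crat, while it called 3.17% of all genes higher and 0.692% lower in aged MFP.

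The sign of the fold change was positive for 28 of the 35 genes (80.0%) with TMM scaling, beside 47% of all genes, and for 16 with total counts only, beside 32% of all genes. In 18 members (51.4%) the lower aged value exceeded the higher young value, beside 23.3% of all genes, and in 3 members (8.57%) the aged values were the lower pair, beside 22.8%. With total counts only, 6 members had the aged values as the higher pair, beside 13.4% of all genes. Aged replicate 1 was the higher of the aged samples for 23 of the 35 genes, beside 49.3% of all genes, and it was also the higher one for 7 of the 8 white adipocyte markers. For 12 of the 16 muscle markers the higher one was aged replicate 2. The other 4, looked up after their values were seen, were Myh1, Myh2, Myh7 and Tnnt1, of which Myh7 and Tnnt1 mark slow fibres and Myh2 fast oxidative fibres. The part that tissue make-up played in the values of the set was not tested.

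**Figure D1:**
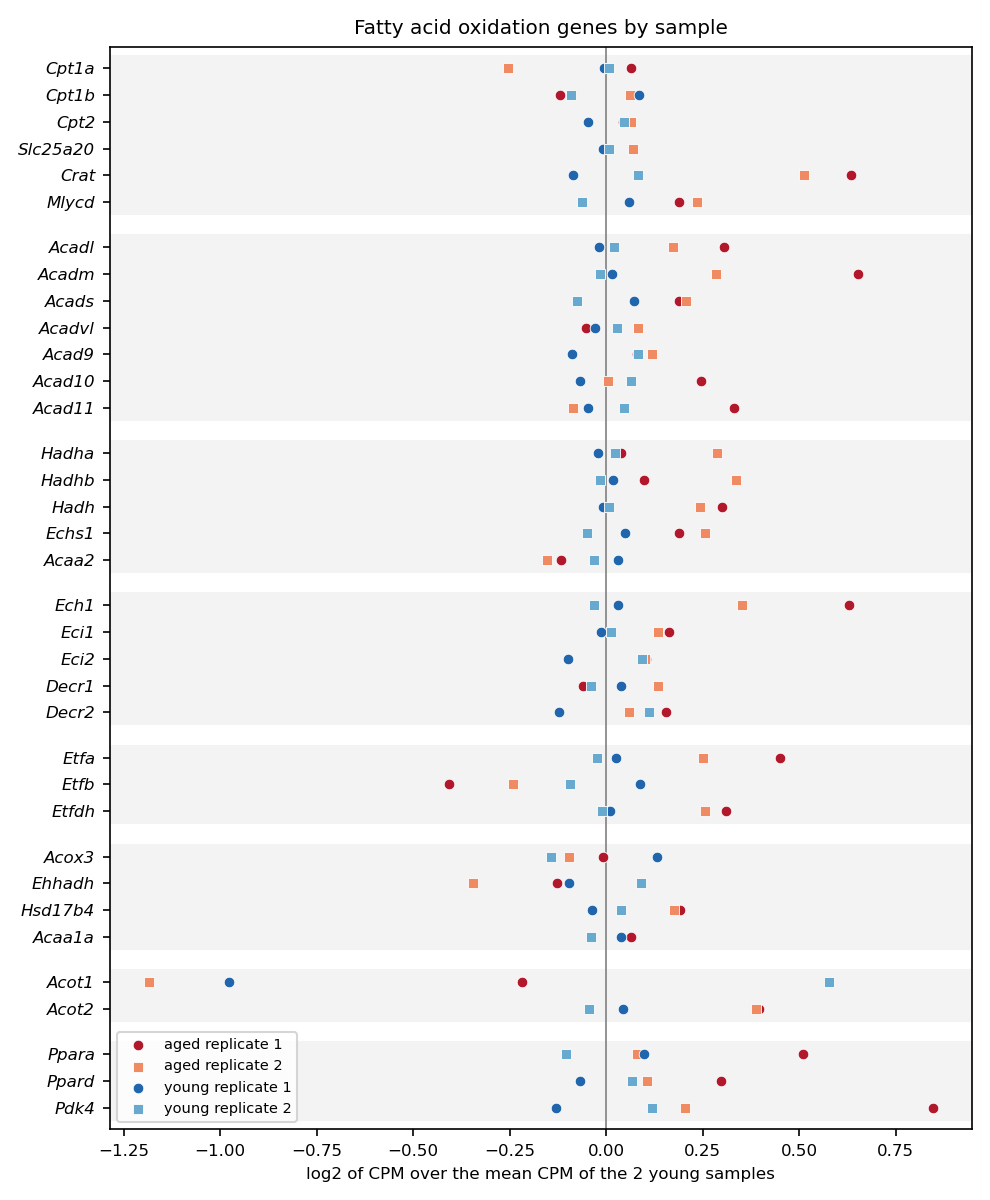
Log2 of the CPM of each of the 35 genes in each of the 4 samples over the mean CPM of the 2 young samples, with TMM scaling, grouped by role. Aged points lie to the right of both young points for 18 genes (51.4%, beside 23.3% of all genes), Crat and Ech1 among them. The points of Acot1 are spread over both sides.

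The genes that carry long-chain fatty acids into mitochondria, Cpt1a, Cpt2 and Slc25a20, had log2 fold changes between -0.09 and 0.05 with TMM scaling and between -0.26 and -0.13 with total counts only. Cpt1a, the widely expressed carnitine palmitoyltransferase of the outer membrane that sets the rate of entry, was at 67.5 and 54.1 CPM in aged replicates 1 and 2 and at 64.2 and 64.8 CPM in young replicates 1 and 2, the order kept for all values that follow. The aged values enclosed both young values. The log2 fold change of Cpt1a was -0.09 ± 0.16 (SE) with an adjusted p of 0.837 in edgeR, -0.26 with total counts only, and it ran from -0.27 without aged replicate 1 to 0.06 without aged replicate 2. Cpt2, which turns acylcarnitine back into acyl-CoA at the inner membrane, had a log2 fold change of 0.05 (-0.13 with total counts only). For Slc25a20, the carnitine-acylcarnitine carrier, it was 0.03 (-0.15 with total counts only). Neither separated the ages.

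Cpt1b, the isoform characteristic of skeletal and heart muscle, had the lowest counts of the set in every sample, with a limit described below. It had 51 and 63 counts in aged and 59 and 47 counts in young libraries, or 0.624 and 0.707 CPM against 0.720 and 0.637 CPM. The samples of the ages overlapped, with a log2 fold change of -0.03 ± 0.34 (SE) and an adjusted p of 0.976 in edgeR. Over the same samples the muscle markers Ckm, the muscle creatine kinase, and Acta1, skeletal muscle actin, went the way of the muscle list. Ckm was at 1979 and 4056 CPM in aged and 584 and 987 CPM in young samples. Acta1 was at 3473 and 5963 CPM against 980 and 1589 CPM (adjusted p of edgeR 0.418 and 0.409). The log2 ratio of Cpt1b to Cpt1a was -6.70 and -6.21 in aged and -6.43 and -6.61 in young samples. It differed by 0.07 between the ages (two-sided exact permutation p = 1, where 0.333 is the smallest p that 2 samples against 2 allow).

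The annotation limits what the count of Cpt1b can show. On GRCm38 the gene (ENSMUSG00000078937) lies at chr15:89416405-89425863 on the minus strand, and 2744 of its 3372 exon bases (81.4%) are also exon of Gm44502, a gene annotated on the same strand across Chkb and Cpt1b. Gm44502 had 0 counts in each of the 4 samples. So had Gm43079 and Gm28305, which share exon bases with Acad9 and Acad11 on the same strand. Reads on the shared bases were therefore not counted for these overlapping genes. If no read on shared bases was counted, the values of Cpt1b would rest on the 628 bases it does not share, and would then be 0.993 and 1.13 CPM per kilobase of such bases in aged and 1.15 and 1.01 in young samples. How reads on bases of more than 1 gene were treated is not given in the sources used here.

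**Figure D2:**
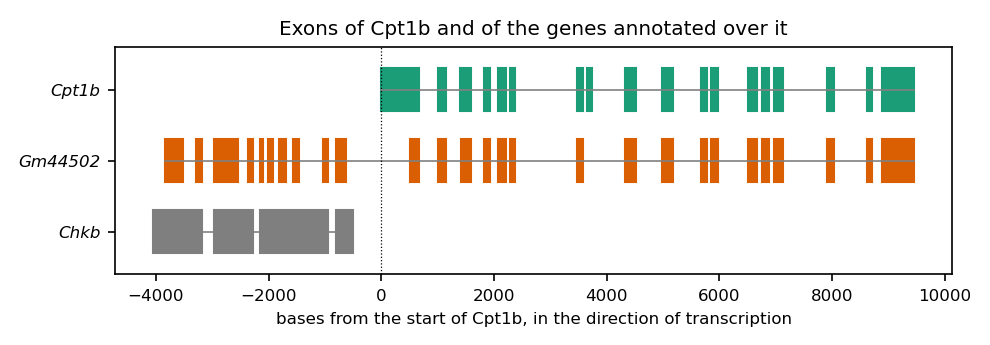
Exons of Cpt1b, of Gm44502 and of Chkb, drawn to scale in bases from the start of Cpt1b in the direction of transcription (boxes, exons; lines, introns). Boxes of Gm44502 stand under nearly all boxes of Cpt1b, and 81.4% of the exon bases of Cpt1b are shared.

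Among the genes of entry, Crat and Mlycd separated the ages. Crat, the carnitine acetyltransferase that exports surplus acetyl groups as acetylcarnitine, was at 249 and 229 CPM in aged and 151 and 169.6 CPM in young samples. Both aged values were above both young values, 238.7 ± 14.3 against 160.2 ± 13.2 (mean ± SD, n = 2 each). Its log2 fold change of 0.58 ± 0.15 (SE) was the largest positive value of the set and had an adjusted p of 0.41 in edgeR. It was 0.40 with total counts only and between 0.49 and 0.66 when 1 sample was left out. Crat (ENSMUSG00000026853) lies at chr2:30400471-30415813 on the minus strand, and 8.7% of its exon bases are overlapped by genes on the opposite strand. Mlycd, the decarboxylase of malonyl-CoA, the metabolite that inhibits carnitine palmitoyltransferase 1, was at 38.0 and 39.2 CPM against 34.7 and 31.9 CPM. This gave a log2 fold change of 0.21 ± 0.14 (SE), with an adjusted p of 0.581 in edgeR, and 0.03 with total counts only.

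Each of the 7 acyl-CoA dehydrogenases, the enzymes of the first step, had a positive log2 fold change with TMM scaling (median 0.14), and 3 of them kept that sign with total counts only. Acadm, the medium-chain enzyme, was at 217 and 168 CPM in aged and 139.7 and 137 CPM in young samples. The young samples were close together and both aged samples were higher, aged replicate 1 most so. The log2 fold change of Acadm was 0.48 ± 0.18 (SE) with an adjusted p of 0.478 in edgeR, and 0.27 without aged replicate 1. Acadl, the long-chain enzyme, was at 223 and 203.5 CPM against 178 and 183 CPM. It too separated the ages, at 0.24 ± 0.14 (SE) and an adjusted p of 0.547 in edgeR, and was at 0.06 with total counts only.

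The short-chain enzyme Acads had a log2 fold change of 0.20 (0.02 with total counts only), also without overlap between the ages under TMM scaling. Acadvl, the very long-chain enzyme of the inner membrane, gave 0.02 with TMM scaling and -0.17 with total counts only, and its ages overlapped. Of its exon bases, 42.9% are overlapped by Dvl2 on the opposite strand, and whether the counting used the strand is not given in the sources used here. Acad9, which also takes part in the assembly of respiratory complex I, gave 0.10, Acad10 gave 0.13 and Acad11 gave 0.14. With total counts only these 3 values were -0.08, -0.05 and -0.03, and their ages overlapped.

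Of the 5 genes of the later mitochondrial steps, 4 had the aged values as the higher pair with TMM scaling, beside 23.3% of all genes. In 1 of them the aged values were the lower pair, beside 22.8% of all genes. Hadh, the short-chain hydroxyacyl-CoA dehydrogenase, was at 209 and 201 CPM in aged and 169 and 171 CPM in young samples. Under TMM scaling the difference between the ages was wide beside that within them. The log2 fold change was 0.27 ± 0.13 (SE), with an adjusted p of 0.519 in edgeR, and 0.09 with total counts only. Echs1, the short-chain enoyl-CoA hydratase, was at 163 and 171 CPM against 148 and 138.5 CPM. Here the log2 fold change was 0.22 ± 0.13 (SE), with an adjusted p of 0.55 in edgeR, and 0.04 with total counts only.

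Hadha and Hadhb encode the subunits of the trifunctional protein, which carries out the later steps on long chains. Their log2 fold changes were 0.17 and 0.22, and aged replicate 2 was the higher of the aged samples for both. Without that library they were 0.03 and 0.09. Hadha turned to -0.02 with total counts only, while Hadhb remained at 0.04. Acaa2, the mitochondrial thiolase of medium and long chains, went the other way at -0.13, with no overlap between the ages.

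The auxiliary enzymes for unsaturated chains gave 5 of 5 positive log2 fold changes with TMM scaling (median 0.11) and 1 of 5 with total counts only. The 1 was Ech1, the dienoyl-CoA isomerase, which was at 187 and 154 CPM in aged and 123 and 118 CPM in young samples. Both aged samples lay above the narrow young range, 170.5 ± 23.1 against 120.8 ± 3.69 (mean ± SD, n = 2 each). For Ech1 the log2 fold change was 0.50 ± 0.16 (SE) with an adjusted p of 0.451 in edgeR, and 0.33 without aged replicate 1. Ech1 (ENSMUSG00000053898) lies at chr7:28825217-28832247 on the plus strand, with no exon base shared with another gene.

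Eci1, a delta3-delta2-enoyl-CoA isomerase of mitochondria, was at 77.6 and 76.0 CPM in aged and 68.6 and 69.9 CPM in young samples. The gap between the ages was small but exceeded that within them, with a log2 fold change of 0.15 ± 0.12 (SE) and an adjusted p of 0.615 in edgeR. Eci2, its peroxisomal relative, gave 0.10, with the lower aged sample just above the higher young one (60.6 against 60.2 CPM). The reductases Decr1 of mitochondria and Decr2 of peroxisomes gave 0.04 and 0.11, and their ages overlapped. With total counts only the log2 fold changes of Eci1, Eci2, Decr1 and Decr2 were -0.03, -0.08, -0.14 and -0.07.

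The 3 genes that carry the electrons away did not share a direction. Etfa, the alpha subunit of the electron transfer flavoprotein, was at 152 and 133 CPM in aged and 113 and 109.5 CPM in young samples. The ages did not overlap, at a log2 fold change of 0.35 ± 0.14 (SE) and an adjusted p of 0.488 in edgeR (0.23 without aged replicate 1). Etfdh, which hands the electrons to ubiquinone, gave 0.28, likewise without overlap.

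Etfb encodes the beta subunit of that flavoprotein and is described here because its direction differed, which was seen in its values. It was at 16.7 and 18.7 CPM in aged and 23.5 and 20.7 CPM in young samples, so the aged values were the lower pair. The log2 fold change was -0.32 ± 0.18 (SE), with an adjusted p of 0.544 in edgeR. Its count is limited like that of Cpt1b: 678 of its 1164 exon bases (58.2%) are shared on the same strand, 617 with Gm45233, which has the symbol Etfbl in the deposited table, and 61 with Mir7051. These neighbours had 1 to 6 and 1 to 13 counts per sample. On the 486 bases that Etfb does not share, its counts would be 34.3 and 38.5 CPM per kilobase in aged and 48.3 and 42.6 in young samples, below the 59.7 to 83.0 of Etfa over all its exons.

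**Figure D3:**
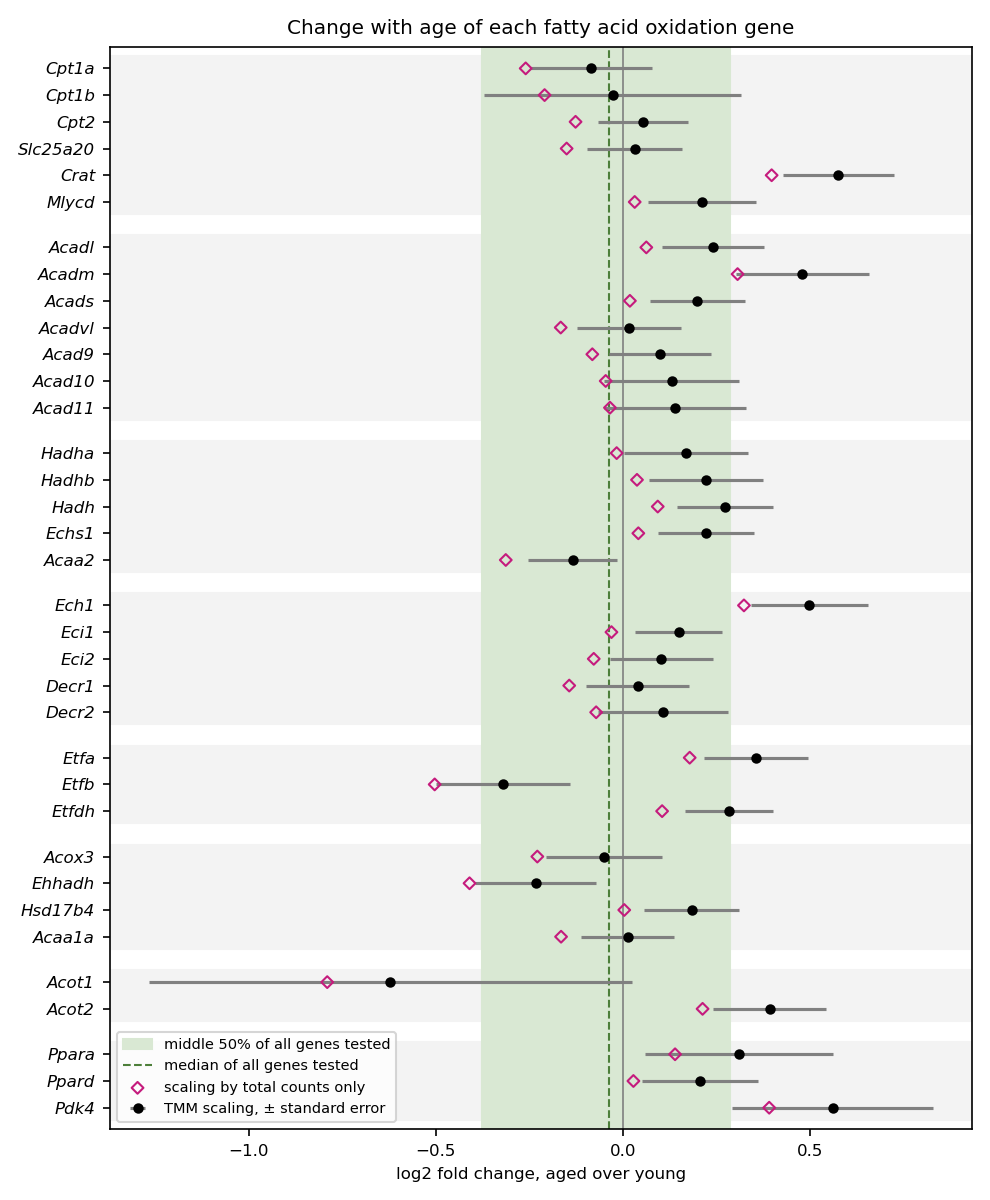
Log2 fold change, aged over young, of each of the 35 genes with TMM scaling (filled points, bars ± SE) and with total counts only (open diamonds), grouped by role. The shaded band holds the middle 50% of all 22485 genes tested, and 28 filled points lie above 0 against 16 open diamonds.

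Among the peroxisomal genes the median was -0.02 on the log2 fold scale with TMM scaling. Of the 4, 2 had a positive log2 fold change with TMM scaling and 1 with total counts only. Ehhadh, the peroxisomal bifunctional enzyme and a classic target of PPAR alpha, was at 44.6 and 38.3 CPM in aged and 45.5 and 51.9 CPM in young samples. Aged values were the lower pair, aged replicate 1 by about 1 CPM. The log2 fold change of Ehhadh was -0.23 ± 0.16 (SE), with an adjusted p of 0.585 in edgeR.

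Hsd17b4, the D-bifunctional protein that acts on very long and branched chains, was at 171 and 169.6 CPM in aged and 146 and 154 CPM in young samples. Both aged values were the higher ones, with a log2 fold change of 0.18 ± 0.13 (SE) and an adjusted p of 0.582 in edgeR, but with total counts only it was 0.0033. Acox3, an acyl-CoA oxidase of branched chains, gave -0.05, and Acaa1a, the peroxisomal thiolase, gave 0.01 (-0.17 with total counts only). The ages overlapped for both.

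The acyl-CoA thioesterases Acot1, of the cytosol, and Acot2, of mitochondria, are neighbours on chromosome 12 and close in sequence. Acot1 was the least reproducible gene of the set, at 23.2 and 11.9 CPM in aged and 13.7 and 40.2 CPM in young samples. The replicates of each age lay farther apart than the mean of either age lay from the other. A log2 fold change of -0.62 ± 0.64 (SE) resulted, with an adjusted p of 0.696 in edgeR, and it ran from -1.20 without aged replicate 1 to 0.35 without young replicate 2.

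Acot2 was described after its values were seen, as the contrast to Acot1. It was at 30.6 and 30.4 CPM in aged and 23.9 and 22.5 CPM in young samples. The replicates were close and the ages apart, with a log2 fold change of 0.39 ± 0.15 (SE) and an adjusted p of 0.486 in edgeR. Sequence shared between such copies makes both counts uncertain: 16.7% of the stretches of 64 bases in exons of Acot1 and 23.9% of those of Acot2 also occur in exons of other genes. This limit is not particular to the pair. The share was 17.9% for Hadhb, 13.7% for Acad10, 10.6% for Acaa1a and 10.3% for Acad9. For Cpt1b and Etfb it was 77.8% and 41.4%.

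The 3 regulators in the set had positive log2 fold changes under each of the 4 scalings. Ppara, the nuclear receptor PPAR alpha that switches on many oxidation genes during fasting, was at 11.9 and 8.84 CPM in aged and 8.95 and 7.78 CPM in young samples. Aged replicate 2 lay between the young samples, so the ages overlapped. The log2 fold change was 0.31 ± 0.25 (SE), with an adjusted p of 0.624 in edgeR, and 0.06 without aged replicate 1. Ppard, its relative PPAR delta, was at 46.6 and 40.8 CPM against 36.2 and 39.7 CPM. The ages did not overlap, by a margin of about 1 CPM, at 0.20 ± 0.16 (SE) and an adjusted p of 0.606 in edgeR, and at 0.03 with total counts only.

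Pdk4, the kinase that shuts off pyruvate dehydrogenase when fat is burned, was at 87.5 and 56.0 CPM in aged and 44.5 and 52.8 CPM in young samples. Aged replicate 1 was far above the rest and aged replicate 2 just above young replicate 2. Its log2 fold change of 0.56 ± 0.27 (SE), or 1.47-fold, had an adjusted p of 0.522 in edgeR. Without aged replicate 1 it was 0.18, so most of the change rests on 1 library.

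Marker lists of the same samples were set beside the fatty acid oxidation genes. Relative to the young mean, their sum was 1.17 and 1.13 in aged replicates 1 and 2 and 0.991 and 1.01 in young replicates 1 and 2. The white adipocyte sum was 1.71 and 1.24 against 0.985 and 1.02, the higher value falling on aged replicate 1. The skeletal muscle sum was 3.25 and 5.25 against 0.837 and 1.16, the higher value falling on aged replicate 2. For the brown and beige adipocyte sum the values were 1.18 and 1.5 against 0.942 and 1.06, while Ucp1, the uncoupling protein of brown fat, was at 13.1 and 10.1 CPM in aged and 21.8 and 18.1 CPM in young samples. Plin1, which coats lipid droplets, was at 1496 and 1019 CPM against 1002 and 1007 CPM.

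Divided by the white adipocyte sum of the same sample, 0 of the 35 genes had the aged values as the higher pair and 27 had them as the lower pair, beside 5.46% and 54.5% of all genes, with a median log2 difference of -0.38 against -0.56 over all genes. Divided by the skeletal muscle sum, 35 of 35 had them as the lower pair, beside 92.4% of all genes, with a median of -1.88 against -2.08. Both denominators were themselves higher in the aged samples. Endothelial markers summed to 1.26 and 0.922 in aged and 1.02 and 0.983 in young samples, mammary epithelial markers to 1.12 and 1.08 against 0.642 and 1.36, and leukocyte markers to 0.124 and 0.293 against 1.90 and 0.101. Hepatocyte markers, with Ttr at 0 counts in every sample, summed to 1.71 and 0.804 against 0.909 and 1.09. Most of that sum was 1 gene, Cyp2e1, at 444 and 180 CPM in aged and 239 and 290 CPM in young samples. Alb was at 30.7 and 42.6 CPM against 12.8 and 12.2 CPM, without overlap between the ages, whereas Apoa2 overlapped.

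**Figure D4:**
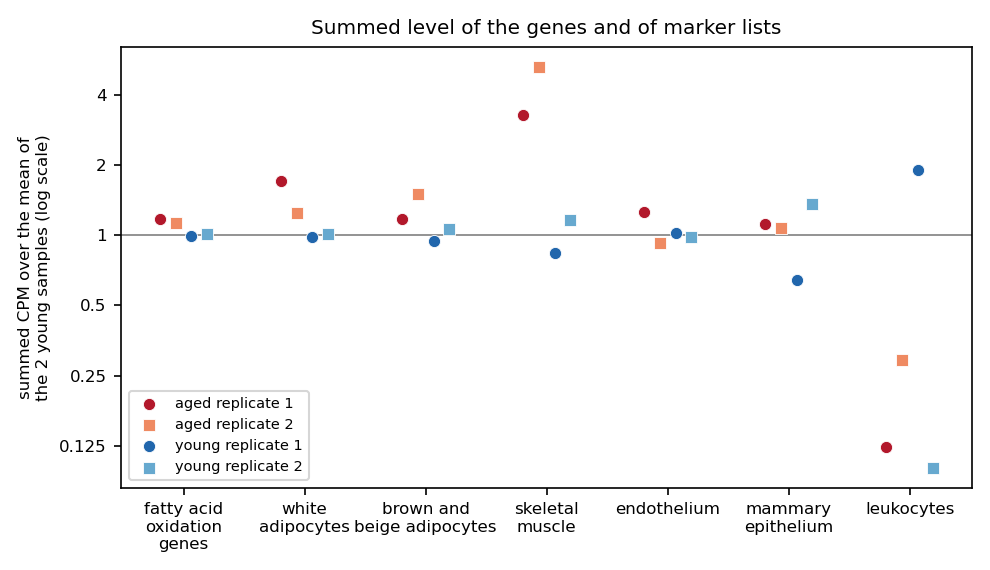
Summed CPM (TMM scaling) of the 35 genes and of 6 marker lists in each of the 4 samples, over the mean of the 2 young samples, on a log scale. The fatty acid oxidation sum spans 0.991 to 1.17, whereas the skeletal muscle sum reaches 5.25 and the leukocyte sum of young replicate 1 is 1.90.

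Per kilobase of exon, levels within the set spanned a wide range. Acadl was the highest with 98.3 CPM per kilobase as the mean of the 4 samples, followed by Acadvl at 78.9, Etfa at 69.2, Ech1 at 63.8 and Acaa2 at 62.7. The samples of Acadl lay between 88.9 and 111, above the 75.7 to 83.0 of Acadvl, while the ranges of Acadvl, Etfa and Ech1 overlapped, as did those of Etfa, Ech1 and Acaa2. Of the exon bases of Acadvl, 42.9% are overlapped by Dvl2 on the opposite strand. The strand setting and the treatment of shared reads are not given, so the order of Acadl and Acadvl is uncertain. Ppara at 2.44 and Cpt1b at 0.199 were the lowest, and Cpt1b would be at 0.993 to 1.15 on only the bases it does not share. Cpt1a was at 8.20. Lengths are of all annotated exons of a gene together, so a gene with long rare exons appears lower.

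**Figure D5:**
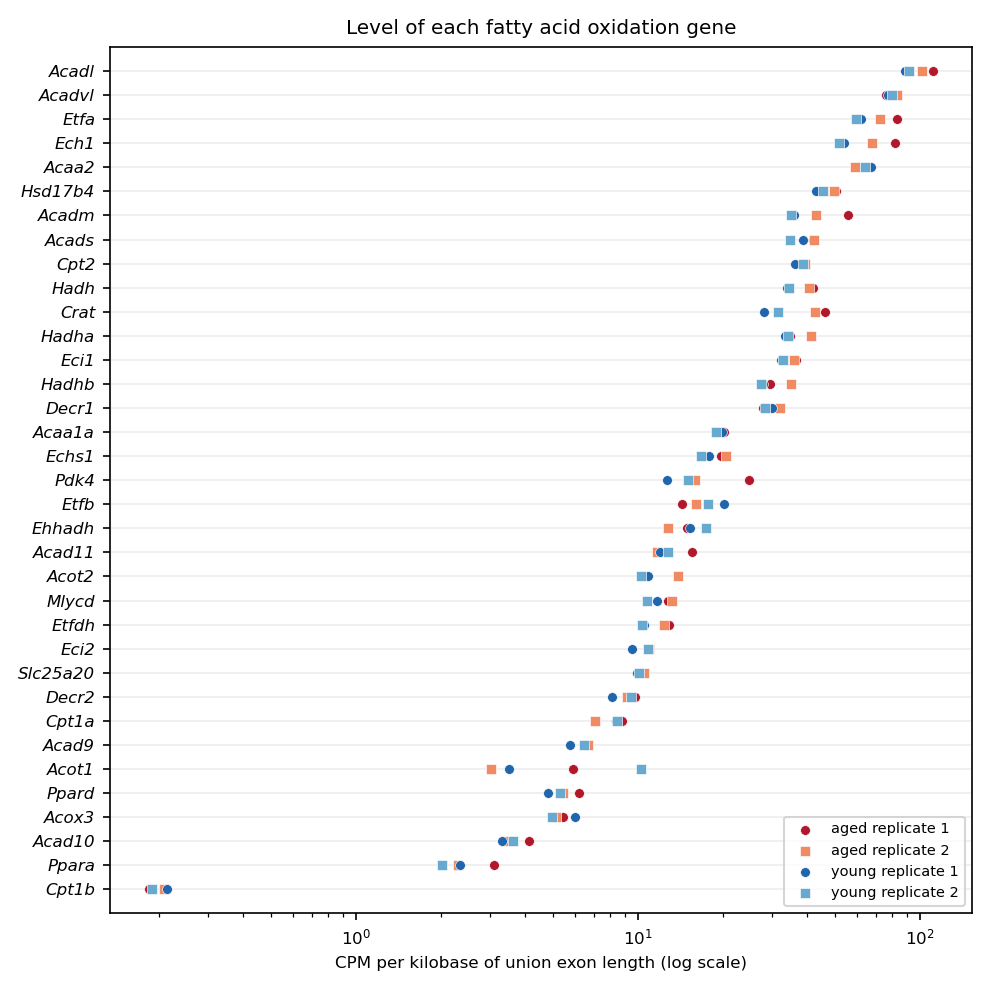
CPM per kilobase of annotated exon length (log scale, TMM scaling) of the 35 genes in each of the 4 samples, ordered by their mean. Acadl is at the top with 98.3 and Cpt1b at the bottom with 0.199, and for most genes the samples lie closer to each other than the genes do.

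Other genes of the pathway, outside the set, gave 17 positive and 9 negative log2 fold changes of 26 with TMM scaling (median 0.23), and 13 of each with total counts only (median 0.05). In edgeR 0 of the 26 were called, with 3 higher and 1 lower at an unadjusted p under 0.05 (all genes 7.24% and 3.31%). The aged values were the higher pair for 12 of them (46.2%), beside 23.3% of all genes. Acsl6, a long-chain acyl-CoA synthetase, was at 3.06 and 5.18 CPM in aged and 0.781 and 0.515 CPM in young samples. It had the largest difference, with a log2 fold change of 2.66 ± 0.46 (SE), an adjusted p of 0.36 in edgeR and one of 1.7e-05 in DESeq2, the 1 call of that tool among the 26, where it called 3.17% of all genes higher. Abcd2, a peroxisomal importer of very long-chain acyl-CoA, was at 466 and 423 CPM against 258 and 297.5 CPM, with a log2 fold change of 0.68.

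The largest negative values were those of Slc27a2, a very long-chain acyl-CoA synthetase, at -0.68, and of Acot8, a peroxisomal thioesterase, at -0.51. Acot8 was at 12.3 and 12.99 CPM in aged and 18.7 and 17.4 CPM in young samples, and Slc27a2 at 0.942 and 0.876 CPM against 1.26 and 1.65 CPM. The ages overlapped for neither. Chosen after its values were seen, the abundant Acsl1, the main acyl-CoA synthetase of adipocytes, was at 1348 and 1432 CPM in aged and 1753 and 1826 CPM in young samples. The aged values were the lower pair.

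Coregulators and targets of the PPAR receptors gave 10 positive log2 fold changes of 14 under each of the 4 scalings, with a median of 0.60 with TMM scaling and 0.41 with total counts only. For 10 of them (71.4%) the aged values were the higher pair with TMM scaling, beside 23.3% of all genes. None was called by edgeR, with 6 higher and 0 lower at an unadjusted p under 0.05 (all genes 7.24% and 3.31%). DESeq2 called 4 as higher in aged MFP, beside 3.17% of all genes. Fabp3, the fatty acid binding protein of heart and skeletal muscle, was at 23.3 and 5.72 CPM in aged and 1.46 and 0.989 CPM in young samples. Fabp3 had a log2 fold change of 3.56 ± 0.81 (SE), with an adjusted p of 0.404 in edgeR and 9.1e-05 in DESeq2. Its higher aged value was in aged replicate 1, as was that of Myh2 (578 against 2.16 CPM), while the summed muscle markers were higher in aged replicate 2, and the part of muscle in this difference was not tested. Vnn1, a pantetheinase and PPAR alpha target, was at 6.38 and 1.06 CPM against 0.476 and 0.610 CPM, with a log2 fold change of 2.77, and aged replicate 1 again held the high value.

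Named after their values were seen, the remaining DESeq2 calls were Prkaa2, Rxra and Ppargc1a. Prkaa2, the AMP-activated kinase subunit prevalent in muscle, was at 106 and 185 CPM in aged and 36.2 and 59.6 CPM in young samples, a log2 fold change of 1.60. Rxra, the partner receptor of the PPARs, was at 223 and 225 CPM against 119 and 140.4 CPM, at 0.78. Ppargc1a, the coactivator PGC-1 alpha, was at 17.5 and 16.9 CPM against 9.73 and 11.1 CPM, at 0.73. Their adjusted p in DESeq2 were 0.0134, 0.0127 and 0.0401.

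Among the negative values of that list, Angptl4, an inhibitor of lipoprotein lipase, was at 78.8 and 42.0 CPM in aged and 105 and 127 CPM in young samples. That gave a log2 fold change of -0.94, with an adjusted p of 0.479 in edgeR. Ucp2, a mitochondrial carrier, was at 155 and 154 CPM against 283 and 174 CPM. Its log2 fold change was -0.57, and its highest value was in young replicate 1, which also held the highest leukocyte marker sum. The part of leukocytes in this difference was not tested.

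Promoter sequence was read for the members to see which of them carry letters of binding motifs of factors known for this pathway. A RefSeq promoter on GRCm38.p6 was found for 29 of the 35 genes, and the 250 bases before the start site were searched on both strands. The direct repeat bound by PPAR and RXR, spelled AGGTCA, 1 free base and AGGTCA again, matched 0 of the 29 members and 0.041% of the 27025 genes with a promoter. The same repeat with AGGNCA in both places matched 0 of 29 and 0.4% of genes, and TCAAGGTCA, the element of the estrogen-related receptors, matched 0 of 29 and 0.422%. At shares this small, 0 matches among 29 genes would be usual for any set, so these searches cannot set the members apart. Sites with other spellings or outside the 250 bases were not searched. The NRF1 motif, spelled GCGCA, 1 free base and GCGC, of a factor known for nuclear genes of mitochondria, matched 4 of 29 members (13.8%) and 4.23% of genes. The 4 were Acad10, Etfb, Etfdh and Ppara, whose log2 fold changes were 0.13, -0.32, 0.28 and 0.31.

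Shown are the stretches around the NRF1 match that lie outside annotated exons, 5′ to 3′ on the strand of the gene with the match in capitals. They are those of Acad10 (chr5:121660515-121660562, minus strand), Etfb (chr7:43444001-43444071, plus strand) and Ppara (chr15:85735714-85735775, plus strand), where the match begins 44, 11 and 31 bases before the start site.
Acad10: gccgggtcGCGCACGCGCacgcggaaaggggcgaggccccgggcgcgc
Etfb: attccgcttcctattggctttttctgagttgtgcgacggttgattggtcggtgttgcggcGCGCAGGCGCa
Ppara: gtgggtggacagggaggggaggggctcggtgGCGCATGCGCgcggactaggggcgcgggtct
By the spelling searched for, matches can differ only at the free base of the motif. The genes that hold them did not share a direction between the ages.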

How the data were processed

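Libraries of 2 aged and 2 young MFP samples were made with a directional kit after removal of ribosomal RNA and sequenced. The values the authors deposited are whole-number read counts for each gene, not normalized, with 1 column per sample and 0 columns left unused. Processing notes of the submitters name R 3.6.1, featureCounts, GRCm38 and hg38 without a role. Aligner, annotation, strand setting and the treatment of shared reads are not given in the sources used here.

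Genes were kept by filterByExpr, scaled by TMM and tested two-sided with the quasi-likelihood test of edgeR 4.0.16 (R 4.3.3), with age as the only term and Benjamini-Hochberg adjustment over 22485 genes at 0.05. DESeq2 1.42.0 was an alternative, next to scaling by RLE, by upper quartile or by total counts only, other filters, omission of mitochondrially encoded genes or of muscle genes from the scaling, edgeR without its legacy method, a replicate block, and omission of each sample in turn. The crossed block and the ratio to adipocyte markers were chosen after seeing the data. The SE is the size of the log2 fold change divided by the square root of F, and CPM uses scaled library totals. Scripts were tested on simulated data. Reads were amplified and carry no molecular identifiers, so the floor of 3 counts covers counting error only. The replicate numbers are not described as pairs and were not taken as such. Same-numbered samples deviated from the mean of their age in opposite directions (r = -0.48). With 2 samples per age the crossed pairing gives the same value with the other sign, so it cannot decide on pairing.

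The members and lists were chosen with earlier results of these data known. By rule, every member is named with its log2 fold change. Values per sample are given for Cpt1a, Cpt1b and the regulators, and for the members of largest absolute change in each role (2 where the role has 4 or more members, otherwise 1). From the other lists the 2 largest changes each way are named, and from the markers Ckm, Acta1, Adipoq, Plin1 and Ucp1. Coordinates and exon lengths are those of GENCODE M21 (GRCm38), in which 55141 of the 55487 identifiers were found, and promoters are from RefSeq. Protein sequences were not used here.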

Additional observations from a re-analysis of the deposited data

How the results depend on the processing

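The signs of 16 of the 35 members stayed positive and those of 3 (Acaa2, Etfb and Ehhadh) negative in each of the 16 fits made, and 0 members were called in any of them. With 2 samples per age, a fit without 1 sample assumes that the lone sample varies like the others. With total counts as the only scaling the median of the members turned to -0.031 (all genes -0.22), and the signs turned for Cpt2 (-0.13), Slc25a20 (-0.15), Acadvl (-0.17), Acad9 (-0.082), Acad10 (-0.046), Acad11 (-0.035), Hadha (-0.017), Eci1 (-0.031), Eci2 (-0.078), Decr1 (-0.14), Decr2 (-0.072) and Acaa1a (-0.17). The 7 members with negative values under TMM scaling were lower still with total counts only. They were Acot1 (-0.79), Etfb (-0.50), Ehhadh (-0.41), Acaa2 (-0.31), Cpt1a (-0.26), Acox3 (-0.23) and Cpt1b (-0.21). Members with both aged samples above both young samples then numbered 6 (all genes 13.4%) in place of 18 (all genes 23.3%). Divided by white adipocyte markers, chosen after seeing the data, they numbered 0 (all genes 5.46%). With upper quartile scaling Slc25a20 (-0.0013), Acadvl (-0.016) and Acaa1a (-0.019) turned. DESeq2 called 865 genes (710 higher, 155 lower) against 0 in edgeR, where 1627 were higher and 744 lower at an unadjusted p under 0.05, and the cause was not tested. Leaving out each sample in turn moved the median of the members between 0.10 and 0.19, with 26 or 28 of 35 positive, and turned signs within the ranges of -0.27 to 0.060 for Cpt1a, -0.13 to 0.064 for Cpt1b, -0.013 to 0.050 for Slc25a20, -0.057 to 0.063 for Acadvl, -0.015 to 0.24 for Acad10, -0.10 to 0.33 for Acad11, -0.066 to 0.12 for Decr1, -0.0047 to 0.23 for Decr2, -0.18 to 0.091 for Acox3, -0.059 to 0.058 for Acaa1a and -1.20 to 0.35 for Acot1. The other scalings and filters left the median between 0.12 and 0.15. With the replicate number as a block (replicate block) the median was 0.15, 0 members were called, the smallest adjusted p of a member in edgeR was 0.829, and 1346 genes were under an unadjusted p of 0.05. For the crossed pairing, chosen after seeing the data, these were 0.15, 0, 0.411 and 2494.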
